A study of Mus musculus with 22 samples.

Results

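RNA was sequenced from microglia sorted from the retinas of Vldlr knockout (KO) mice on day 17 (P17) and on day 31 (P31) after birth, and the change between the ages was measured gene by gene. The labels give 10 KO libraries, 5 of each age, among 22 in the series. The comparison used P31 KO libraries 1 to 5 and P17 KO libraries 2 to 5, and it was repeated with P17 KO library 1, whose scaling stands apart. The other 12 libraries are controls, 7 at P17 and 5 at P31, and entered the TMM scaling and the comparison of the age change between the genotypes. All groups were sorted with the same gate, CD45low CD11b+ Ly6C- Ly6G- and Tom positive. The genotype is written vldrlKO or control in the genotype label, and vldlrKO in the sample titles. They give neither the deleted part of the gene, the strain, nor the gene that drives the Tom reporter. They do not state that each library is 1 animal, so the p-values here cover the spread between libraries, which may be technical in part.

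Microglia are the resident macrophages of the retina. They clear dying neurons and synapses while the retina matures, and they renew themselves by local division. The very low density lipoprotein receptor takes up lipoproteins, and mice without it grow vessels from the deep retinal layers toward the photoreceptors, a model of retinal angiomatous proliferation. The series title gives the part of microglia in that process as its question. In dividing cells E2F factors switch on replication genes for S phase, while in resting cells the DREAM complex holds many replication and mitosis genes silent.

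Levels are given as TMM-scaled CPM, reads put on a common library total and not corrected for gene length. The 10 KO libraries held 23.9 to 39.6 M reads. P17 KO 1 had a TMM factor of 0.570, against 0.926 to 1.13 in the other 21 libraries. Its 10 most abundant genes took 34.5% of its reads, against 13.5% to 18.1% in the other 9 KO libraries. Its median correlation with its own group was 0.737, against 0.803 to 0.928 in the other KO libraries, with P31 KO 4 and 5 the lowest of these. The microglial markers P2ry12, Tmem119 and Csf1r were abundant in the 9 KO libraries compared, for example Csf1r at 17656 to 25447 in P17 KO 2 to 5 and 10638 to 17960 at P31. Summed over 8 microglial markers, P17 KO 1 was lower, at 36224, against 59009 to 72363 in P17 KO 2 to 5 and 50636 to 59605 at P31. P17 KO 4 held Y-linked reads at 54.2 and P17 KO 1 at 47.5, while the P31 KO libraries held at most 0.0278, and Xist was present in all 10. P17 KO 1 and 4 thus held both, with Xist at 171 and 69.2, and whether they mix RNA of several animals was not tested. Mitochondrial reads took 0.256% to 0.413% of P17 KO 2 to 5 and 0.433% to 0.719% of the P31 KO libraries. In P17 KO 1 they took 1.13%, above every P31 KO library, and the part of these shares in the results was not tested. Of 19 rod genes tested 0 changed (median -0.02), at summed levels of 869 to 3183 at P17 and 712 to 4206 at P31. Of the other retinal and blood cell markers, 1 of 3 bipolar, 1 of 3 amacrine and horizontal, 1 of 10 glial and 2 of 2 B cell markers tested fell, the B cell calls being lost in all 9 fits with 1 library left out. T and NK cell markers summed to at most 3.34 in any of these 9 libraries.

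Vldlr itself (ENSMUSG00000024924, chromosome 19, 27216484 to 27254231, mm10) was low in the KO at both ages. P17 KO 1 to 5 held 0, 17, 0, 13 and 0 Vldlr reads, and P31 KO 1 to 5 held 0, 1, 65, 1 and 14. These counts were too low for the age test. The P17 controls held 49 to 790 reads. Among P31 controls, library 1 held 875 and the other 4 held 0, so Vldlr separates the genotype labels at P17 but not at P31.

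In KO microglia, 14 of 54 tested genes of DNA replication and mitosis were higher at P31 than at P17, and 0 were lower. Of 31 disease-associated microglia genes 3 were higher (Gpnmb, Lgals3, Fabp5) and 4 lower (Apoe, Timp2, Ctsl, Lyz2). Apoe, Lag3 and Ets1 fell severalfold, and 6 of 34 lysosomal and 5 of 27 hypoxia and glycolysis genes fell. Of 11364 genes tested, 89 rose (0.783%) and 159 fell (1.4%), 2.18% in all, at a limma adjusted p under 0.05. The genes that rose had a median log2 fold change of 1.58 and those that fell of -0.81, against -0.09 for all genes tested. Over 4-fold changes numbered 35 upward and 9 downward. In 8.88% of the tested genes the 9 libraries did not overlap between the ages, 3.03% upward and 5.85% downward. For genes named below by the size of their change, lack of overlap was a condition of naming and adds no support.

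The number of calls depended on single libraries. Leaving out 1 library gave 31 to 107 genes higher and 37 to 145 lower, with the lowest numbers without P17 KO 4 and, for lower calls, also without P17 KO 5. Higher calls fell to 43, 38, 31 and 43 without P17 KO 2, 3, 4 or 5, and to 50 and 40 without P31 KO 1 or 2. Lower calls fell to 61, 39, 37 and 37 without P17 KO 2, 3, 4 or 5, and to 89, 79 and 99 without P31 KO 1, 2 or 3. Of the 248 genes, 54 were called in all 9 of these fits, 25 higher and 29 lower. With P17 KO 1 included, 13 genes were called, 10 higher (0.0866%) and 3 lower (0.026%), all among the 248. These were Apoe, Lag3, Ets1, Mcm6, Dtl, Brca1, Ccna2, Ccnb2, Lgals3, Gpnmb, Fignl1, Nav2 and the predicted gene Gm10800. Of the 248, 247 kept their direction with that library. For every other gene described as changed, the call was lost with P17 KO 1.

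Many genes of the cell cycle were higher at P31. Of 55 listed genes of DNA replication and mitosis 54 were tested, 14 rose and 0 fell, with 52 above 0 and a median of 1.77 on the log2 scale. Brca1 was the 1 member under 1 CPM in each of the 4 P17 libraries, so it passed the filter on level only through P31. Summed over the list, the level was 474, 515, 502 and 558 in P17 KO 2 to 5 and 1486, 1754, 1349, 1753 and 1672 in P31 KO 1 to 5. P31 thus stood above P17 in every library, and P17 KO 1, at 642, also lay below all P31 libraries. The count of 14 became 9 without P17 KO 2, 5 with P17 KO 1 added and 0 with the replicate number as a block. With limma's voom the calls of Brca1, Ccna2, Ccnb1, Ccne2, Dtl, Uhrf1 and Plk1 were lost. With edgeR those of Brca1, Ccnb1 and Plk1 were lost.

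The Mcm2 to Mcm7 genes encode the helicase that unwinds DNA at replication forks. Mcm6 (ENSMUSG00000026355, chromosome 1, 128331590 to 128359664) was at 23.6, 24.2, 20.8 and 28 in P17 KO 2 to 5 and 153, 108, 112, 149 and 59.7 in P31 KO 1 to 5. The ages did not overlap, and the log2 fold change was 2.18 (SE 0.27, adjusted p by limma = 0.0065). Mcm5 was at 13.2, 13.5, 19.7 and 27.4 in P17 KO 2 to 5 and 86.6, 88.4, 89.1, 70.4 and 64.2 in P31 KO 1 to 5, also without overlap, a change of 2.13 (SE 0.25, adjusted p by limma = 0.0065). P17 KO 1 was lower still, at 11.1 for Mcm6 and 0.808 for Mcm5. Mcm4 (log2 fold change 1.62, limma adjusted p = 0.00915) and Mcm2 (log2 fold change 2.11, limma adjusted p = 0.0177) rose as well. Mcm3 (log2 fold change 0.83, limma adjusted p = 0.144) and Mcm7 (log2 fold change 1.09, limma adjusted p = 0.305) did not pass, and P31 KO 5 was the lowest P31 library for both.

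Other genes of the S phase rose further. Dtl, which directs the CRL4 ubiquitin ligase to the licensing factor Cdt1, was at 5.75, 2.68, 2.65 and 1.26 in P17 KO 2 to 5 and 34.2, 27.2, 28.8, 67.4 and 42.1 in P31 KO 1 to 5. Every P31 library was at least severalfold above every P17 library, a log2 fold change of 3.56 (SE 0.43, adjusted p by limma = 0.0065). Uhrf1, which maintains DNA methylation behind the fork, was at 3.61 to 9.24 at P17 and 23.9 to 45.4 at P31 (log2 fold change 2.40, limma adjusted p = 0.00967). Ccne2, a cyclin of S phase entry, was at 0.808 to 3.08 at P17 and 11.8 to 32.3 at P31 (log2 fold change 3.06, limma adjusted p = 0.0113). Brca1, a DNA repair gene, was at 0.889, 0, 0 and 0 in P17 KO 2 to 5 and 14.2, 6.28, 23.8, 6.3 and 7.43 in P31 KO 1 to 5, with reads in only 1 of the 4 P17 libraries. Its log2 fold change was 4.03 (SE 0.61, adjusted p by limma = 0.00979). Pcna, the sliding clamp of the polymerases (log2 fold change 1.09, limma adjusted p = 0.0488), and Hmgb2, a chromatin protein (log2 fold change 1.31, limma adjusted p = 0.0252), rose by less. P17 KO 1 held both at high levels, 90.4 and 159, above every other P17 library.

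Genes of mitosis rose in part. Ccna2, the cyclin of S phase and G2, was at 4.15, 1.17, 6.0 and 1.15 in P17 KO 2 to 5 and 23.3, 27.8, 18.9, 36.7 and 68.7 in P31 KO 1 to 5. The lowest P31 library was above the highest P17 library, and the log2 fold change was 3.41 (SE 0.54, adjusted p by limma = 0.0116). Ccnb1, a cyclin of mitotic entry, was at 1.36, 0, 1.88 and 4.97 in P17 KO 2 to 5 and 18.7, 24.8, 14.4, 25.2 and 39.5 in P31 KO 1 to 5, a change of 3.66 (SE 0.65, adjusted p by limma = 0.0177). Ccnb2 (log2 fold change 2.58, limma adjusted p = 0.00967) and the mitotic kinase Plk1 (log2 fold change 3.14, limma adjusted p = 0.0431) rose too. Outside the list, Fignl1, an ATPase of homologous recombination (log2 fold change 3.92, limma adjusted p = 0.017), and Hmmr, a spindle protein (log2 fold change 3.03, limma adjusted p = 0.0331), were among the largest increases. The proliferation marker Mki67 was at 3.85, 0, 2.31 and 13.6 in P17 KO 2 to 5 and 4.54, 8.48, 14.1, 0.75 and 23.5 in P31 KO 1 to 5 and overlapped between the ages (log2 fold change 1.25, limma adjusted p = 0.601). Top2a, a topoisomerase of dividing cells, overlapped as well (log2 fold change 1.53, limma adjusted p = 0.379), with P31 KO 4 lowest of all 9. Leaving out 1 library ended the calls of Mcm2 without P17 KO 2 (adjusted p up to 0.061), Pcna in all 9 fits (adjusted p up to 0.159), Hmgb2 without any of P17 KO 2, 4, 5 and P31 KO 2 (adjusted p up to 0.0977) and Ccnb1 without any of P17 KO 2, 4 (adjusted p up to 0.0545), and of Fignl1 without P17 KO 3 (adjusted p up to 0.0525), Hmmr in 6 of 9 fits, being called only without P17 KO 5, P31 KO 4 and P31 KO 5 (adjusted p up to 0.109) and Plk1 in 8 of 9 fits, being called only without P17 KO 3 (adjusted p up to 0.122). With the GC trend removed, the adjusted p by limma was 0.0937 for Pcna, 0.12 for Hmgb2 and 0.0587 for Hmmr. With edgeR and with voom the calls of Fignl1 and Hmmr were lost.

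**Figure D1:**
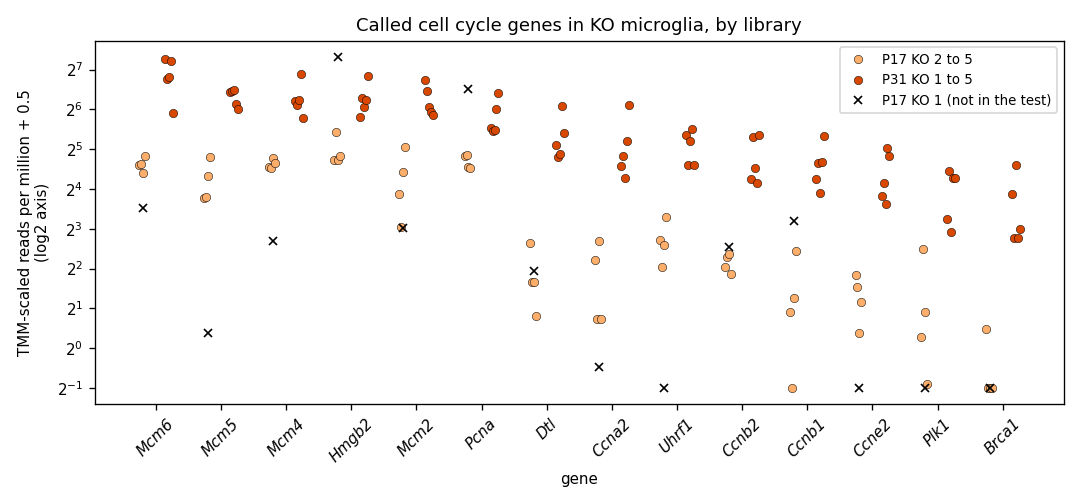
Levels of the 14 called cell cycle genes in each KO library, as TMM-scaled CPM + 0.5 on a log2 axis, with genes ordered by their P31 mean. Light points are P17 KO 2 to 5, dark points P31 KO 1 to 5 and crosses P17 KO 1, and for each gene all dark points lie above all light points, while the cross lies above all light points for Pcna, Hmgb2, Ccnb1 and Ccnb2.

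The promoters of these genes were searched for short motifs, which the choice of genes did not use, as a description with no test. RefSeq promoter windows (GRCm38.p6, 250 bases before the start to 50 after) were on hand for 44 of the 54 tested members and 11 of the 14 that rose. The letters CCAAT, on either strand, were in 11 of the 11 and in 81.8% of the 44, against 41.1% of all 27025 genes with a window and 43.5% of the tested genes. The E2F letters TTTGGCGC were in 3 of the 11, those of Mcm5, Mcm6 and Dtl, and in 11.4% of the 44, against 0.585% of all genes and 1.19% of the tested genes. TTTCCCGC, a second E2F form, was in 0 of the 11 and 11.4% of the 44, against 1.24% of all. The CHR letters TTTGAA were in 4 of the 11 and 45.5% of the 44, against 20.2% of all. Among the genes that fell and had a window, 43.4% held CCAAT and 0 of 129 held either E2F form. A match is a description of letters and shows no bound factor. The 250 bases before the start of 3 S phase genes that hold both E2F and CCAAT letters, and of Ccnb1, where no E2F letters were found in this stretch, are shown 5′ to 3′ on the gene's strand, with these matches on either strand in capitals. They lie at chr8:75109259-75109508 (plus strand), chr1:128359706-128359955, chr1:191575545-191575794 and chr13:100786487-100786736 (minus strand).
Mcm5: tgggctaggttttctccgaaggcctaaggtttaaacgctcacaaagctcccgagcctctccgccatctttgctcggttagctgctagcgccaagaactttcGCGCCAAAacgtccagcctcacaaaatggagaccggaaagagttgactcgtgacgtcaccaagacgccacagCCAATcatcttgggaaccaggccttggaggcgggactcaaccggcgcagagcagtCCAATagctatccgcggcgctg
Mcm6: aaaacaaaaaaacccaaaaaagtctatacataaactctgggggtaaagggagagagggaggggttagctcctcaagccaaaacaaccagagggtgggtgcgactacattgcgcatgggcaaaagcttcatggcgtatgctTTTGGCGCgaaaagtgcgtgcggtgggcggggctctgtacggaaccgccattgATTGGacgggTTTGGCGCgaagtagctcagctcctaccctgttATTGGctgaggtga
Dtl: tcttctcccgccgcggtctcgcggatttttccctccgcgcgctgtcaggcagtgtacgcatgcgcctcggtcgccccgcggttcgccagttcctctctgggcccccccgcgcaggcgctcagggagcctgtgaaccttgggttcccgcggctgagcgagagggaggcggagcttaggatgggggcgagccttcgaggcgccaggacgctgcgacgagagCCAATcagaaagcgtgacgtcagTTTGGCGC
Ccnb1: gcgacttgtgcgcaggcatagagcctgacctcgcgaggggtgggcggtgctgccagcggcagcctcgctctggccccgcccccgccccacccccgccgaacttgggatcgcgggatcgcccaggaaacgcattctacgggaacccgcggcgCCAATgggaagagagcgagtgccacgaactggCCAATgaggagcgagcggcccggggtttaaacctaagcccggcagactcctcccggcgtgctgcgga
The E2F letters begin 149 bases before the start in Mcm5, 110 and 47 before it in Mcm6 and 8 before it in Dtl. CCAAT letters begin 77 and 22 bases before the start in Mcm5, 57 and 14 in Mcm6, 31 in Dtl, and 99 and 67 in Ccnb1.

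Of 19 listed inhibitors of the cell cycle and quiescence genes 17 were tested and 0 changed, with a median of 0.09. The most abundant were Ccng2, an atypical cyclin (log2 fold change -0.35, limma adjusted p = 0.293), and the antiproliferative genes Btg2 (log2 fold change 0.30, limma adjusted p = 0.348) and Btg1 (log2 fold change -0.36, limma adjusted p = 0.158). Btg1 nevertheless was at 222 to 243 at P17 and 168 to 211 at P31, without overlap, and was called with the GC trend removed (adjusted p by limma = 0.0454).

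Genes that mark microglia in neurodegeneration, the disease-associated set, split in direction. Of 31 tested, 3 rose and 4 fell, with a median log2 change of -0.07. Gpnmb, a membrane glycoprotein of lysosome-rich macrophages (ENSMUSG00000029816, chromosome 6, 49036546 to 49070929), was at 5.07, 0.699, 0 and 2.97 in P17 KO 2 to 5 and 19.4, 119, 174, 21.5 and 150.3 in P31 KO 1 to 5. P31 KO 1 and 4 were lowest among the P31 libraries and still above every P17 library. Its log2 fold change was 5.19 (SE 0.87, adjusted p by limma = 0.0151), a call that ended without P17 KO 3 (adjusted p = 0.055). Lgals3, galectin 3, a lectin of phagocytic macrophages, was at 3.88, 0.932, 3.23 and 4.56 in P17 KO 2 to 5 and 24.3, 24.8, 45.5, 29.2 and 55.1 in P31 KO 1 to 5. Its ages did not overlap, with a log2 fold change of 3.38 (SE 0.46, adjusted p by limma = 0.00846). Fabp5, a fatty acid binding protein, was at 13, 13, 14.8 and 7.16 in P17 KO 2 to 5 and 45.4, 58.8, 94.7, 34.8 and 99.6 in P31 KO 1 to 5, a log2 fold change of 2.36 (SE 0.36, adjusted p by limma = 0.00979). P17 KO 1 held 61.4, inside the P31 range. With voom the calls of Lgals3 and Fabp5 were lost, and that of Gpnmb with voom and with edgeR. Clec7a, the beta-glucan receptor (log2 fold change 1.87, limma adjusted p = 0.0539), and Cybb, the NADPH oxidase subunit (log2 fold change 2.08, limma adjusted p = 0.0875), did not overlap between the ages and did not pass.

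Apoe, apolipoprotein E, a lipid carrier that microglia secrete (ENSMUSG00000002985, chromosome 7, 19696109 to 19699188), fell about 7.46-fold. It was at 18721, 28258, 32220 and 19751 in P17 KO 2 to 5 and 3120.2, 3665, 4254, 1967 and 3675 in P31 KO 1 to 5. P17 KO 1 was higher still, at 80590, so every P17 library was several times above every P31 library. The mean was 24738 ± 6569 (SD, n = 4) at P17 and 3336 ± 864 (SD, n = 5) at P31. The log2 fold change was -2.90 (SE 0.22, adjusted p by limma = 0.000398), and the call held in all 26 alternatives run. Apoe is also a marker of Mueller glia. The other 15 listed markers of Mueller glia and astrocytes summed to 2244 to 3460 at P17 and 2172 to 2629 at P31, and of the 10 tested Apoe alone changed. Of the disease-associated genes, Timp2, an inhibitor of metalloproteinases (log2 fold change -0.74, limma adjusted p = 0.00915), Ctsl, a lysosomal protease (log2 fold change -0.53, limma adjusted p = 0.017), and Lyz2, lysozyme (log2 fold change -0.76, limma adjusted p = 0.0283), fell by less. The count of 4 that fell became 2 without P17 KO 3, 4 or 5, and 1 with P17 KO 1 added. Single calls ended for Lyz2 in 6 of 9 fits, being called only without P17 KO 2, P31 KO 4 and P31 KO 5 (adjusted p up to 0.0976) and Ctsl without any of P17 KO 3, 4, 5 (adjusted p up to 0.0714). Trem2 (-0.32, limma adjusted p = 0.273), a receptor this program depends on, and Itgax (-0.02, limma adjusted p = 0.981) did not pass.

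Homeostatic microglial genes mostly did not pass. Of 30 tested 2 rose and 3 fell, with a median log2 change of -0.08. P2ry12, the purinergic receptor, was at 11146 to 17268 at P17 and 9018 to 12060 at P31 (log2 fold change -0.33, limma adjusted p = 0.233), and Tmem119 at 4158 to 5217 at P17 and 3989 to 4999.8 at P31 (log2 fold change -0.07, limma adjusted p = 0.755). Sparc, a secreted matrix protein that microglia make in quantity, was at 10923, 11269, 11649 and 11521 in P17 KO 2 to 5 and 6078, 6649.5, 6290.3, 6053 and 6871 in P31 KO 1 to 5. Its libraries were tight within each age, with means of 11341 ± 319.9 (SD, n = 4) and 6388 ± 360.2 (SD, n = 5). The log2 fold change was -0.83 (SE 0.07, adjusted p by limma = 0.000398). Fcrls (log2 fold change -0.65, limma adjusted p = 0.0431) and Selplg, a selectin ligand (log2 fold change -0.49, limma adjusted p = 0.0498), also fell. Cx3cr1, the fractalkine receptor, rose and was at 2189.8 to 2752 at P17 and 3087 to 3941 at P31 (log2 fold change 0.53, limma adjusted p = 0.0292), and Olfml3, a secreted protein, rose as well (log2 fold change 0.46, limma adjusted p = 0.0177). These 4 calls ended for Fcrls in 7 of 9 fits, being called only without P17 KO 2 and P31 KO 5 (adjusted p up to 0.139), Selplg in 7 of 9 fits, being called only without P17 KO 4 and P31 KO 3 (adjusted p up to 0.155), Cx3cr1 in 6 of 9 fits, being called only without P17 KO 5, P31 KO 4 and P31 KO 5 (adjusted p up to 0.0982) and Olfml3 without any of P17 KO 4, 5 (adjusted p up to 0.0703). The lower count of 3 became 1 without any of P17 KO 3, 5 and P31 KO 2, 4. The higher count of 2 became 0 without P17 KO 4 and 1 without any of P17 KO 2, 3, 5 and P31 KO 1, 2, 3.

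**Figure D2:**
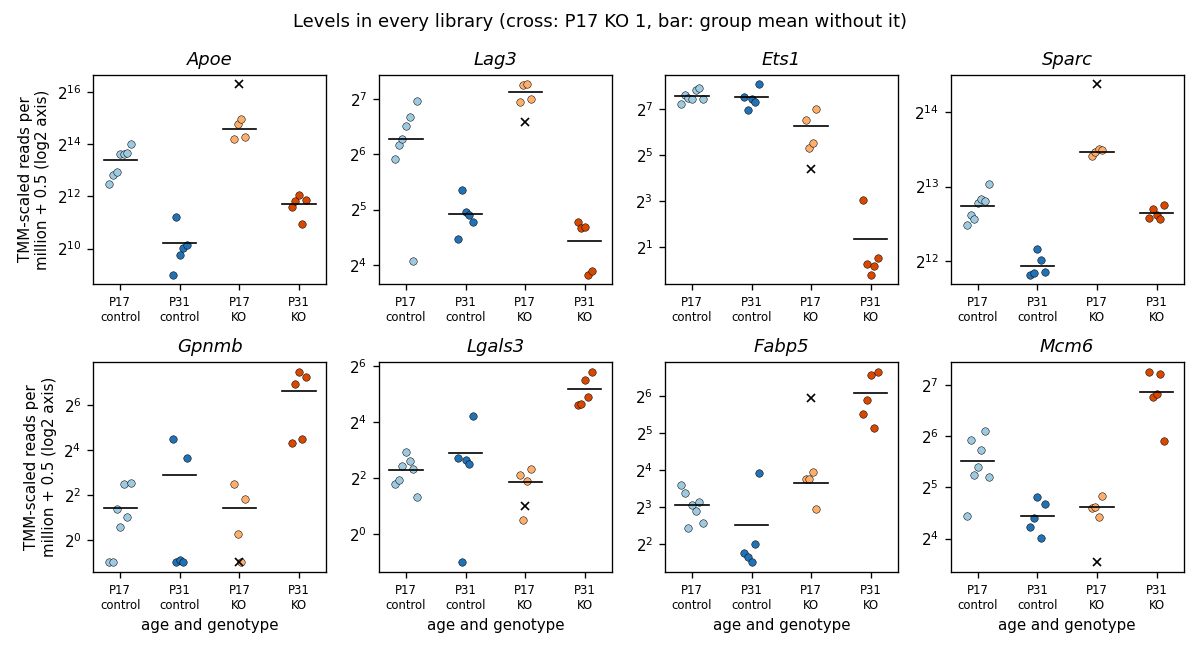
Levels of 8 genes in all 22 libraries, as TMM-scaled CPM + 0.5 on log2 axes, by age and genotype, with P17 KO 1 as a cross and bars at group means without it. Apoe and Sparc step down with age in both genotypes, Ets1 drops to 0.379 to 7.84 in P31 KO libraries and is at 149 to 241 and 125 to 269.9 in P17 and P31 controls, and Gpnmb, Lgals3, Fabp5 and Mcm6 are higher in the P31 KO than in the P17 KO.

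Ets1, a transcription factor of the ETS family (ENSMUSG00000032035, chromosome 9, 32636221 to 32757820), had the largest fall of the 159 genes. It was at 92.6, 39, 45.6 and 130.1 in P17 KO 2 to 5 and 7.84, 0.711, 0.379, 0.639 and 0.945 in P31 KO 1 to 5. P31 KO 1 was the highest P31 library and still several times below the lowest P17 library entered. The log2 fold change was -5.33 (SE 0.68, adjusted p by limma = 0.00668). The call was lost with voom (adjusted p = 0.0788). P17 KO 1, at 20.8, lay between the ages. Among 34 tested macrophage transcription factors of 36 listed, 5 fell and 0 rose, with a median log2 change of -0.24. The others were Etv1, another ETS factor (log2 fold change -1.33, limma adjusted p = 0.0456), Nfkb1 (log2 fold change -0.69, limma adjusted p = 0.0369), Spi1, which encodes the macrophage master regulator PU.1 (log2 fold change -0.60, limma adjusted p = 0.023), and Irf8 (log2 fold change -0.59, limma adjusted p = 0.03). Spi1 was at 424 to 487 at P17 and 265 to 318 at P31 and P17 KO 1 stood at 1095. These calls were lost for Etv1 in 8 of 9 fits, being called only without P31 KO 1 (adjusted p up to 0.158), Nfkb1 in 8 of 9 fits, being called only without P31 KO 5 (adjusted p up to 0.123), Spi1 in 5 of 9 fits, being called only without P31 KO 1, P31 KO 3, P31 KO 4 and P31 KO 5 (adjusted p up to 0.075) and Irf8 in 7 of 9 fits, being called only without P31 KO 3 and P31 KO 5 (adjusted p up to 0.102). The count of 5 became 1, Ets1, without any of P17 KO 2, 3, 4, 5 and P31 KO 2, then 2 without P31 KO 4, and 3 without P31 KO 1 and also without P31 KO 3. After correction for GC content the adjusted p was 0.302 for Spi1 and 0.0605 for Irf8, and 3 of the 5 calls remained.

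Genes induced by type I interferon leaned upward. Of 40 listed 35 were tested, 4 rose and 0 fell, with 28 above 0 and a median log2 fold change of 0.95. Ifi27l2a, a small mitochondrial membrane protein, was at 4.59, 7.42, 4.0 and 5.38 in P17 KO 2 to 5 and 43, 57.1, 18.9, 50.04 and 72.9 in P31 KO 1 to 5. All P31 libraries were above all 4 P17 libraries, a log2 fold change of 2.97 (SE 0.39, adjusted p by limma = 0.00837). Rtp4, a chaperone of membrane receptors, was at 6.04 to 7.79 at P17 and 14.3 to 25.5 at P31 (log2 fold change 1.5, limma adjusted p = 0.032), and Phf11b at 17.2 to 20.6 at P17 and 33.8 to 52 at P31 (log2 fold change 1.11, limma adjusted p = 0.0262). Cxcl10, the chemokine that draws activated T cells, was at 3.08, 0, 0 and 0 in P17 KO 2 to 5 and 12.4, 14, 6.41, 39.6 and 3.96 in P31 KO 1 to 5, with P17 reads in 1 library only and a log2 fold change of 3.85 (SE 0.82, adjusted p by limma = 0.0374). P17 KO 1 was above every other P17 library for all 4 genes, at 76.4 for Ifi27l2a, 138 for Rtp4, 108 for Phf11b and 99.4 for Cxcl10. With it 0 of the 4 passed, at adjusted p of 0.351, 0.788, 0.696 and 0.564. Summed over the list the other libraries held 419 to 505 at P17 and 680.2 to 827 at P31, and P17 KO 1 held 1491. The count of 4 became 1 without any of P17 KO 3, 4, 5 and P31 KO 1, 2 without any of P17 KO 2 and P31 KO 2, 3, and 8 without P31 KO 5. Calls ended for Rtp4 in 6 of 9 fits, being called only without P31 KO 2, P31 KO 4 and P31 KO 5 (adjusted p up to 0.109), Phf11b in 7 of 9 fits, being called only without P31 KO 4 and P31 KO 5 (adjusted p up to 0.0982) and Cxcl10 in 7 of 9 fits, being called only without P17 KO 2 and P31 KO 5 (adjusted p up to 0.125). With the GC trend removed 2 calls remained, and the adjusted p was 0.0742 for Phf11b and 0.0505 for Cxcl10. With voom the calls of Ifi27l2a, Rtp4 and Cxcl10 were lost, and that of Cxcl10 also with edgeR and with DESeq2.

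The interferon response element is GAAA, any 2 bases and GAAA again, on either strand. It was in 53.8% of the 26 tested interferon genes with a promoter window on hand, against 3.99% of all genes with a window. Of the members that rose, 2 had a window and 2 of 2 held it. The 250 bases before the start of Cxcl10, at chr5:92348890-92349139 (minus strand), show the match in capitals, beginning 213 bases before the start.
Cxcl10: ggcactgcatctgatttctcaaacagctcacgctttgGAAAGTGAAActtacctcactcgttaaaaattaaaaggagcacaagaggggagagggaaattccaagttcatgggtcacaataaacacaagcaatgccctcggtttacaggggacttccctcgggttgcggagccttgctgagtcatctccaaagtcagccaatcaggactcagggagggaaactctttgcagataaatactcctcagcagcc
Irf7 (log2 fold change 0.69, limma adjusted p = 0.754), a transcription factor that amplifies the interferon response, did not pass.

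Antigen presentation and chemokine genes changed in few members. Of 24 tested antigen presentation genes 2 rose and 0 fell. These were the class I genes H2-K1, at 254 to 317 at P17 and 361 to 529.8 at P31 (log2 fold change 0.67, limma adjusted p = 0.032), and H2-Q7, at 0.0389 to 0.622 at P17 and 2.36 to 8.22 at P31 (log2 fold change 2.44, limma adjusted p = 0.0463). H2-Q7 thus passed the filter on level only through its P31 libraries. Class I genes are near-identical, so their reads may be split between copies. Of 24 cytokine and chemokine genes 2 rose, Cxcl10 and the B cell attractant Cxcl13, which was at 0.682, 2.33, 0.154 and 1.37 in P17 KO 2 to 5 and 34.5, 9.14, 7.07, 37 and 6.14 in P31 KO 1 to 5. The ages did not overlap, but P31 libraries spread widely (log2 fold change 3.35, limma adjusted p = 0.0383). Of 27 receptors 2 rose, Cx3cr1 and the chemokine receptor Ccr6, which was at 57.9, 129, 43.7 and 50.9 in P17 KO 2 to 5 and 223, 187, 198, 190.1 and 169 in P31 KO 1 to 5 (log2 fold change 1.58, limma adjusted p = 0.0174). P17 KO 1 held Ccr6 at 292, above every P31 library. Calls ended for H2-K1 in 8 of 9 fits, being called only without P31 KO 5 (adjusted p up to 0.121), H2-Q7 in 8 of 9 fits, being called only without P31 KO 4 (adjusted p up to 0.141), Cxcl13 in 7 of 9 fits, being called only without P31 KO 3 and P31 KO 5 (adjusted p up to 0.125) and Ccr6 without any of P17 KO 2, 4, 5 (adjusted p up to 0.0641). The antigen presentation count of 2 became 0 without any of P17 KO 2, 3, 4, 5 and P31 KO 1, 2, 3, and 1 without P31 KO 4. The calls of H2-Q7 and Cxcl13 were lost with edgeR and with voom.

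Of 34 tested lysosomal genes 6 fell, 0 rose and 28 did not pass, with 8 above 0 and a median log2 change of -0.27. Ctsa, a protease that protects lysosomal enzymes, was at 2961, 4186, 3845 and 3427 in P17 KO 2 to 5 and 1852, 2122, 2290.3, 1839 and 1962 in P31 KO 1 to 5. Its ages did not overlap, a log2 fold change of -0.83 (SE 0.11, adjusted p by limma = 0.00848). Laptm5, a lysosomal membrane protein of blood cells, was at 7557 to 9205 at P17 and 3533 to 5362 at P31 (log2 fold change -0.89, limma adjusted p = 0.00979). Psap, the precursor of the saposins (log2 fold change -0.82, limma adjusted p = 0.0396), Grn, progranulin (log2 fold change -0.48, limma adjusted p = 0.0418), Ctss (log2 fold change -0.60, limma adjusted p = 0.0499) and Ctsl were the others. Calls ended for Psap in 8 of 9 fits, being called only without P31 KO 2 (adjusted p up to 0.122), Grn in all 9 fits (adjusted p up to 0.14) and Ctss in 8 of 9 fits, being called only without P17 KO 4 (adjusted p up to 0.154). The count of 6 became 2 without P17 KO 3 or 5, and 3 without any of P17 KO 2, 4 and P31 KO 1, 3, 4, 5. After GC correction 4 remained, and the adjusted p was 0.111 for Psap and 0.33 for Grn.

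Glycolytic genes leaned downward. Of 27 tested genes of hypoxia and glycolysis 5 fell and 0 rose, with 3 above 0 and a median log2 fold change of -0.64. Eno1, enolase, was at 392, 477, 484 and 416 in P17 KO 2 to 5 and 218, 259, 249.9, 207 and 250.03 in P31 KO 1 to 5. All P31 libraries lay below all 4 P17 libraries, a log2 fold change of -0.90 (SE 0.12, adjusted p by limma = 0.00846). Pfkl, phosphofructokinase (log2 fold change -0.81, limma adjusted p = 0.023), Aldoa, aldolase (log2 fold change -0.74, limma adjusted p = 0.0246), Pkm, pyruvate kinase (log2 fold change -0.77, limma adjusted p = 0.0316), and Ldhb, lactate dehydrogenase (log2 fold change -0.79, limma adjusted p = 0.0272), were the others. Eno1 alone was still called after GC correction (adjusted p = 0.0248), and the list's median was then -0.43. Calls ended for Pfkl without any of P17 KO 3, 4, 5 and P31 KO 2 (adjusted p up to 0.0995), Aldoa without any of P17 KO 2, 3, 4 and P31 KO 2 (adjusted p up to 0.0977), Pkm in 5 of 9 fits, being called only without P31 KO 2, P31 KO 3, P31 KO 4 and P31 KO 5 (adjusted p up to 0.121) and Ldhb without any of P17 KO 4 and P31 KO 1, 2, 3 (adjusted p up to 0.0962). The count of 5 became 1 without P17 KO 4, 2 without any of P17 KO 3 and P31 KO 2, and 3 without P17 KO 2 or 5. Processed copies of glycolytic genes can share reads with them, so these values depend on how the counting treated such reads.

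Receptors, lipid and cytoskeletal genes changed singly. Fcgr3, a receptor for IgG, was at 2334, 3559.7, 2349.5 and 2506 in P17 KO 2 to 5 and 1129, 1061, 1301, 1288 and 1738 in P31 KO 1 to 5, a log2 fold change of -1.04 (SE 0.16, adjusted p by limma = 0.0112). Tlr2, a receptor for bacterial lipopeptides, went the other way, at 329.7 to 453 at P17 and 504 to 684 at P31 (log2 fold change 0.72, limma adjusted p = 0.0197). These were the 2 changes among 28 Fc and pattern recognition receptors tested. Among 24 tested genes of lipid efflux and storage, Apoe and Lipa, the lysosomal lipase (log2 fold change -0.77, limma adjusted p = 0.0177), fell and Fabp5 rose. Among 27 cytoskeletal genes, Actb, beta actin, was at 4042, 4384, 2864 and 3404 in P17 KO 2 to 5 and 7265, 10091, 7897, 7503 and 6984 in P31 KO 1 to 5. It rose by 1.12 (SE 0.14, adjusted p by limma = 0.0065), while P17 KO 1 held 12033. The hyaluronan receptor Cd44 rose too (log2 fold change 1.47, limma adjusted p = 0.0431). The integrin Itgb5 (log2 fold change -0.66, limma adjusted p = 0.00967), the GTPase Rac2 (log2 fold change -0.75, limma adjusted p = 0.0133), cofilin Cfl1 (log2 fold change -0.57, limma adjusted p = 0.0443) and Selplg fell. The constitutive chaperone Hspa8 was the 1 of 14 heat shock genes that changed (log2 fold change -0.98, limma adjusted p = 0.0209). Calls ended for Tlr2 without any of P17 KO 2, 3, 4 and P31 KO 2 (adjusted p up to 0.0775), Lipa without any of P17 KO 3, 4, 5 (adjusted p up to 0.0714), Cd44 in 7 of 9 fits, being called only without P31 KO 1 and P31 KO 5 (adjusted p up to 0.136), Rac2 without P17 KO 4 (adjusted p up to 0.0539), Cfl1 in 8 of 9 fits, being called only without P17 KO 5 (adjusted p up to 0.125) and Hspa8 without any of P17 KO 3, 4, 5 (adjusted p up to 0.0816). Of the cytoskeletal counts, the 2 higher became 1 without any of P17 KO 2, 3, 4, 5 and P31 KO 2, 3, 4, and the 4 lower became 2 without any of P17 KO 2, 3, 4 and P31 KO 1, 2, 4, 5. After GC correction they were 1 and 1.

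Lists with no changed gene were those of complement (14 tested), angiogenic factors (16), cholesterol synthesis and uptake (23), immediate early genes (17), TGF beta signalling (22), cytosolic ribosomal proteins (40) and the nuclear respiratory chain (29). Their medians were -0.20, -0.12, -0.40, -0.49, 0.06, 0.03 and -0.02, in that order. A p above the threshold does not show that a gene was alike at both ages. The complement initiators were abundant, with C1qb at 9562 to 11820 at P17 and 7298 to 10100 at P31 (log2 fold change -0.19, limma adjusted p = 0.393), C1qc (-0.18, limma adjusted p = 0.472) and C1qa (0.04, limma adjusted p = 0.856). The most abundant angiogenic genes were the antiangiogenic Serpinf1 (0.65, limma adjusted p = 0.215), the VEGF co-receptor Nrp1 (-0.34, limma adjusted p = 0.709) and Pdgfb (0.09, limma adjusted p = 0.937). For lipid supply these were the lipoprotein receptor Lrp1 (-1.10, limma adjusted p = 0.109) and the sterol gene Msmo1 (-0.29, limma adjusted p = 0.694). Tgfbr1 (0.36, limma adjusted p = 0.368), Tgfbr2 (0.09, limma adjusted p = 0.83) and Nrros (-0.39, limma adjusted p = 0.162), which keep TGF beta signalling in microglia, did not pass. Jun (-0.26, limma adjusted p = 0.692), Klf6 (-0.29, limma adjusted p = 0.398), Rpl4 (0.07, limma adjusted p = 0.865), Rps9 (-0.05, limma adjusted p = 0.928), Rplp0 (0.03, limma adjusted p = 0.952), Atp5b (-0.21, limma adjusted p = 0.403), Sdha (-0.46, limma adjusted p = 0.302) and Cox4i1 (-0.11, limma adjusted p = 0.795) did not pass either.

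**Figure D3:**
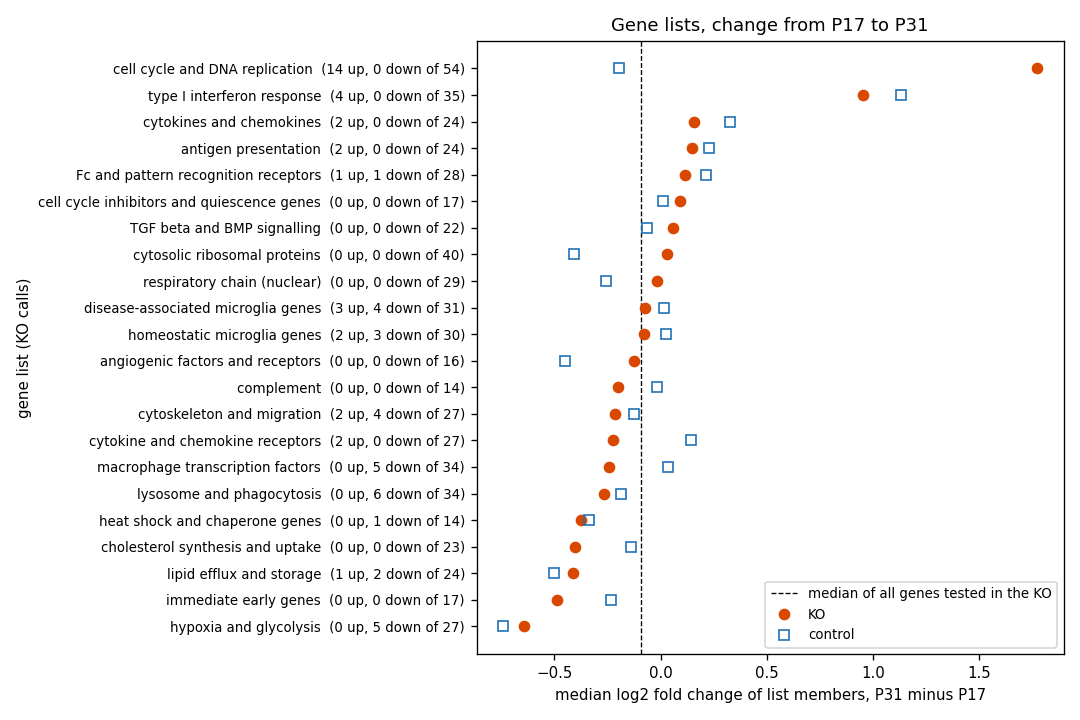
Median log2 fold change from P17 to P31 over the tested members of 22 gene lists in KO (filled circles) and control (open squares) libraries, with the numbers of members called in the KO beside each list name. The dashed line is the median of all genes tested in the KO, -0.09, and the cell cycle list stands at 1.77 in the KO and -0.20 in controls.

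Single genes outside the lists were among the largest changes. Lag3, an inhibitory receptor known from T cells (ENSMUSG00000030124, chromosome 6, 124904361 to 124911705), was at 123, 152, 153 and 128 in P17 KO 2 to 5 and 26.8, 24.9, 25.3, 13.6 and 14.2 in P31 KO 1 to 5. P17 KO 1, at 94.9, also lay above every P31 library. The log2 fold change was -2.75 (SE 0.25, adjusted p by limma = 0.000787), and the call held in all 26 alternatives run. Smpdl3b, a sphingomyelinase-like protein (log2 fold change 3.35, limma adjusted p = 0.0245), rose. So did Rims2, a presynaptic scaffold, which was at 0, 0.427, 0 and 0.186 in P17 KO 2 to 5 and 8.0, 1.33, 4.57, 10.6 and 13.9 in P31 KO 1 to 5 (log2 fold change 3.39, limma adjusted p = 0.0293). Rims2 thus passed the filter on level only through its P31 libraries. Summed rod markers in the same libraries were 3183, 1532, 3133 and 869 in P17 KO 2 to 5 and 712, 1008, 2368, 2798 and 4206 in P31 KO 1 to 5, and with the rod score, the mean log2 level of the rod markers, as a covariate the log2 change of Rims2 was 3.42 (limma adjusted p = 0.0359). The call of Rims2 was lost with edgeR (adjusted p = 0.108) and with voom, and so was that of Smpdl3b with both. Serinc3, a membrane protein, fell and was at 1727 to 4977 at P17 and 1011 to 1333 at P31 (log2 fold change -1.5, limma adjusted p = 0.0136), and P17 KO 1 held 1019, within the P31 range. Jup, plakoglobin, fell in all 9 fits with 1 library left out (log2 fold change -1.46, limma adjusted p = 0.0088). P17 KO 1 held Jup at 13.5, below every P31 KO library (34.3 to 66.7), and with it the change was -0.83 (limma adjusted p = 0.651).

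Further genes fell by 1.33 to 1.62 on the log2 scale. They were Ttyh3, a chloride channel family member (-1.62, limma adjusted p = 0.0431), the transcription factors Pou2f2 (-1.59, limma adjusted p = 0.0422) and Klf7 (-1.5, limma adjusted p = 0.0465), and Msl1, of a histone acetyltransferase complex (-1.58, limma adjusted p = 0.045). Gpx3, a secreted glutathione peroxidase (-1.5, limma adjusted p = 0.0357), Zfp385a, a zinc finger protein (-1.45, limma adjusted p = 0.0318), Rin3, an activator of Rab5 (-1.43, limma adjusted p = 0.017), and Atxn7l3b (-1.34, limma adjusted p = 0.0166) complete the group. In none of these did the 9 libraries overlap, which was a condition of naming them and so adds no support. Leaving out 1 library ended calls of Smpdl3b without any of P17 KO 4 and P31 KO 1, 2, 3 (adjusted p up to 0.0714), Rims2 in 7 of 9 fits, being called only without P31 KO 2 and P31 KO 5 (adjusted p up to 0.103) and Serinc3 without any of P17 KO 3, 4 (adjusted p up to 0.0545). It also ended those of Ttyh3 in 8 of 9 fits, being called only without P31 KO 1 (adjusted p up to 0.135), Pou2f2 in 7 of 9 fits, being called only without P31 KO 1 and P31 KO 4 (adjusted p up to 0.126), Klf7 in 8 of 9 fits, being called only without P31 KO 5 (adjusted p up to 0.152) and Msl1 in 7 of 9 fits, being called only without P31 KO 4 and P31 KO 5 (adjusted p up to 0.147), and of Gpx3 in 7 of 9 fits, being called only without P17 KO 2 and P31 KO 4 (adjusted p up to 0.136), Zfp385a in 5 of 9 fits, being called only without P31 KO 2, P31 KO 3, P31 KO 4 and P31 KO 5 (adjusted p up to 0.118), Rin3 without any of P17 KO 2, 4, 5 (adjusted p up to 0.0641) and Atxn7l3b without any of P17 KO 3, 4, 5 (adjusted p up to 0.069). With the GC trend removed, Ttyh3, Pou2f2, Msl1, Gpx3, Zfp385a and Rin3 were not called, at adjusted p by limma of 0.113, 0.0778, 0.0833, 0.0858, 0.0907 and 0.0608. The calls of Klf7, Ttyh3, Pou2f2 and Msl1 were lost with edgeR, and those of Klf7 and Gpx3 with voom.

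The controls were compared between the same ages. Y-linked reads were present in all 7 P17 controls (64.4 to 181) and in P31 controls 1 and 5 (225 and 123), while P31 controls 2 to 4 held 0, with Xist at 175 to 231. P17 controls 4 and 6 held Xist as well, at 66.7 and 132. The part of these sex-linked reads in the age calls of the controls was not tested. In 1 fit of 21 libraries, 265 of 13097 genes rose in controls (2.02%) and 601 fell (4.59%). The KO counts of 89 and 159 came from the fit of 9 libraries, so the counts of the genotypes are not on the same footing. Of the 159 genes that fell in the KO, 155 were below 0 in controls and 88 were called lower there. Of the 89 that rose, 65 were above 0 in controls and 31 were called. The log2 age change in controls was -3.28 (limma adjusted p = 8.7e-07) for Apoe, -0.80 (limma adjusted p = 4.59e-06) for Sparc and 0.90 (limma adjusted p = 5.98e-07) for Cx3cr1. Ifi27l2a had a control change of 1.56 (limma adjusted p = 0.00715), and the interferon list a control median of 1.13 with 12 called higher. The glycolytic list had a control median of -0.74 with 13 called lower. For these genes and lists the difference between the genotypes was called for 0 members. The cell cycle list had a median of -0.20 in controls, with 0 called higher and 2 lower.

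**Figure D4:**
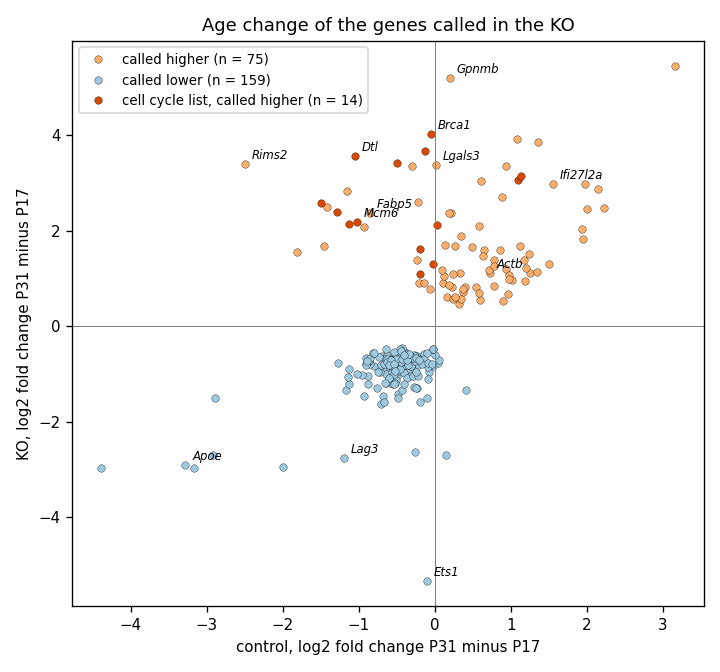
Log2 fold change from P17 to P31 in controls (horizontal) and in the KO (vertical) for the 248 genes called in the KO, each point 1 gene. Genes called lower lie almost all left of 0, while the 14 called cell cycle genes lie from -1.5 to 1.13 in controls, and Ets1 is near 0 in controls and at -5.33 in the KO.

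The age change differed between the genotypes for 9 genes, 5 more positive and 4 more negative in the KO (0.0687% of 13097, limma). At an unadjusted p under 0.05 there were 1242. Mcm6 was at 21.3 to 68.7 in P17 controls and 15.5 to 27.5 in P31 controls, a log2 age change of -1.02 (limma adjusted p = 0.0221). Its difference, KO minus control, was 3.20 (SE 0.40, limma adjusted p = 0.00028), and it held in all 36 alternatives run. Ets1 was at 149 to 241 and 125 to 269.9 in P17 and P31 controls, and its difference was -5.23 (SE 0.61, limma adjusted p = 0.000192). P17 KO libraries were already below all P17 controls for Ets1. Dtl had a difference of 4.61 (SE 0.86, limma adjusted p = 0.0332) and Brca1 of 4.08 (SE 0.72, limma adjusted p = 0.0224), so 3 cell cycle genes in all were called. The calls of Dtl and Brca1 were both lost with edgeR, DESeq2 and voom, and with the deposited scaling, pseudocount 0.1 and the replicate block. That of Ets1 was lost with voom alone (adjusted p = 0.116). Fabp5, at 4.91 to 11.6 and 2.33 to 14.5 in controls, had a difference of 3.21 (SE 0.59, limma adjusted p = 0.0303).

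Rims2 was at 0.228 to 9.42 in P17 controls and 0 to 0.445 in P31 controls, and its difference was 5.89 (SE 0.98, limma adjusted p = 0.0141). With edgeR and with voom the difference calls of Rims2 and Fabp5 were lost. The call of Rims2 was lost when that rod score entered the fit of 21 libraries, and so were the calls of Brca1, Dtl, Fabp5 and Fam102b. The differences were then 4.32 for Rims2, 3.69 for Brca1, 4.40 for Dtl, 3.21 for Fabp5 and -1.51 for Fam102b, at limma adjusted p of 0.329 to 0.338. Of the rod markers 16 fell in controls (median -3.27 on the log2 scale), while in the KO 0 were called. Serinc3 had a difference of -1.39 (SE 0.24, limma adjusted p = 0.0154) and Fam102b of -1.65 (SE 0.27, limma adjusted p = 0.0141), both more negative in the KO. With P17 KO 1 added, the calls of Serinc3 (-1.06, limma adjusted p = 0.39), Fam102b (-1.36, limma adjusted p = 0.27) and Fabp5 (2.74, limma adjusted p = 0.244) were lost. With the level of 4 Y-linked genes as a covariate, an alternative chosen after seeing the data, 10 genes were called for the difference, 8 of them among the 9, and the call of Fabp5 was lost (2.91, limma adjusted p = 0.0658). The difference did not pass for Gpnmb, at 4.99 (SE 1.51, limma adjusted p = 0.282), Lgals3, at 3.36 (SE 0.92, limma adjusted p = 0.229), Mcm5, at 3.26 (SE 0.93, limma adjusted p = 0.245), or Ccna2, at 3.90 (SE 1.21, limma adjusted p = 0.29). Leaving out 1 of 21 libraries ended the calls of Brca1 without any of P17 KO 3, 4, 5 and P31 KO 3 (adjusted p up to 0.0826), Rims2 without P17 KO 4 (adjusted p up to 0.0591) and Serinc3 without P17 KO 4 (adjusted p up to 0.0643). It also ended those of Dtl in 16 of 21 fits, being called only without P17 control 1, P17 KO 2, P31 control 3, P31 KO 1 and P31 KO 2 (adjusted p up to 0.103) and of Fabp5 in 12 of 21 fits, being called only without P17 control 3, P17 control 4, P17 control 6, P17 control 7, P17 KO 2, P31 control 3, P31 control 5, P31 KO 1 and P31 KO 4 (adjusted p up to 0.103). The count of 9 became 3 without P17 KO 4, 5 without P31 KO 3, 14 without P31 control 3 and 20 without P31 KO 1.

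GC content moved with the age change. Across 11360 genes the log2 fold change had a Pearson r of -0.29 with the GC content of the transcript, and in controls of -0.27. These are correlations across genes, which are not independent replicates. The median log2 fold change ran from 0.22 in genes of at most 42% GC to -0.35 in those above 54%. Genes that rose had a median GC content of 45.6% and those that fell of 53.6%, against 49.2% for all tested. With this trend removed within each library, 57 genes rose (0.502%) and 91 fell (0.801%), and 119 of the 248 were shared, 53 higher and 66 lower. Apoe, Lag3, Ets1, Sparc, Lgals3, Gpnmb and 12 cell cycle genes were still called.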

How the data were processed

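Gene values came from 1 table of RNA sequencing. The authors deposited signal values that are gene reads divided by 1 size factor per library: all 349420 non-zero values (100%) were whole multiples of the library's smallest value within 1e-06, so whole reads were recovered. Per the submitters' processing notes, the tools were featureCounts, STAR 2.7.5b, DESeq2 1.22.2 in R 3.5.3 and FastQC 0.72, with genome build mm10. The strand setting and annotation version were not given in the sources used here. Log2 fold changes and adjusted p-values of the authors, also deposited, were not used for calls. In the authors' deposited table the KO age comparison had 718 genes at an adjusted p under 0.05, 112 of them among the 248.

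Here reads were scaled with TMM over all 22 libraries (edgeR 4.0.16) and log2(CPM + 0.5) was tested with limma 3.58.1 (trend, robust) in R 4.3.3, on 11364 genes with at least 1 CPM in at least 4 of the 9 libraries. P-values were adjusted by Benjamini-Hochberg and called under 0.05. The difference of age changes was fitted on 21 libraries. On the recovered reads edgeR's quasi-likelihood test called 64 genes higher and 108 lower. Named genes were Vldlr, up to 14 called genes per direction with the largest log2 fold change, non-overlapping libraries and at least 5 CPM on average in the group with more (predicted genes and pseudogenes left out), up to 5 called members of each list by p, up to 3 of the highest level where none was called, and up to 8 of the difference by p. Other list members were named to describe their list after their values were seen. The gene lists, the members and the libraries compared were chosen with earlier results of these data known. Promoter windows came from RefSeq (GRCm38.p6), and gene positions are those of mm10. No 2 KO libraries agreed within sampling noise. Code was tested on simulated data. Alternatives were other scalings, filters, pseudocounts, tests, a replicate block, a rod covariate, leaving out libraries and, added after the data were seen, a GC correction, a Y-linked covariate, leaving out P31 KO 4 and 5, and leaving out P17 KO 4 with the GC correction.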

Additional observations from a re-analysis of the deposited data

Results flagged for a closer look

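In 5 of 134 gene and group combinations tested, 1 library lay far from the rest of its group, and chance alone marks about 1 in 20. Brca1 was at 0.889 CPM in P17 KO 2 and had no reads in P17 KO 3 to 5. Cxcl10 was at 3.08 in P17 KO 2 and also had no reads in the other 3. With the other values tied at 0, any reads in 1 library are flagged, so that rate does not apply to Brca1 and Cxcl10. Ets1 was at 7.84 in P31 KO 1, and the next P31 library was at 0.945. Fcgr3 was at 3559.7 in P17 KO 3, above 2506 in the next. Tlr2 was at 504 in P31 KO 5, below 631 in the next.

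The age change differed between KO and control microglia for 9 genes, on the log2 scale and by limma's test of the difference itself. It was 3.20 for Mcm6, 4.61 for Dtl, 4.08 for Brca1, 3.21 for Fabp5 and 5.89 for Rims2. It was -5.23 for Ets1, -1.39 for Serinc3, -1.65 for Fam102b and -1.48 for Rsrc2, with adjusted p for all 9 between 0.000192 and 0.0347. Rsrc2 falls outside the naming rule and was named after its values were seen.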

How the results depend on the processing

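Over 2649 alternatives of 99 gene results, no result past the threshold changed sign, 636 times a call was lost, 5 times one was gained, and 2008 times the side of the threshold was kept. Of results not past the threshold, 12 changed sign in 34 alternatives. Higher and lower calls (89 and 159) became 10 and 3 with P17 KO 1, 337 and 313 with DESeq2, 37 and 97 with voom, 27 and 46 without a filter, 57 and 91 with GC correction, 158 and 362 with all 4 groups in the fit, and 20 and 11 without P17 KO 4 and with GC correction. The share called higher was 51.8% with DESeq2 against 35.9%. Leaving out 1 library gave 31 to 107 higher and 37 to 145 lower. The difference between genotypes (9 genes) became 5 with P17 KO 1, 265 with DESeq2, 3 with voom, 15 with pseudocount 2, 3 with the rod covariate, 15 with GC correction and 3 to 20 with 1 library left out. The cause of these moves was not tested. With the replicate number as a block the age comparison called 4 higher and 4 lower and the difference 4. Deviations of same-numbered libraries correlated at 0.042, -0.016, -0.023 and -0.095, and not every library correlated best with its own number. With only 4 such pairs, this cannot decide whether the numbers pair the libraries. Genes near 1 CPM and those at 0 in a group need caution. A single read was 0.0237 to 0.0389 CPM in the 9 libraries compared, and the cause of the zeros was not tested.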

Other observations

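The genes in this section were chosen after their values were seen. Some genes outside the cell cycle list were higher at P31 in the KO. Prim1, a primase subunit, went from a mean of 3.54 to 18.3 CPM (log2 change 2.48, limma adjusted p = 0.0318). Rfc4, of the clamp loader, changed by 1.88 (limma adjusted p = 0.0485), Tipin, of the fork protection complex, by 1.59 (0.00979), Knl1, of the kinetochore, by 2.36 (0.046) and Cks1b, a cyclin kinase subunit, by 1.69 (0.0318). Ccnd1, a G1 cyclin, changed by 1.30 in the KO (0.0431) and by 1.51 in controls. With 1 library left out, Tipin was called in 9 of 9 fits, Prim1 and Cks1b in 3, Ccnd1 in 2, Knl1 in 1 and Rfc4 in 0. Prim1, Rfc4 and Knl1 were not called after GC correction, and none of the 6 with P17 KO 1.

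Of 12 tested genes on the mitochondrial chromosome 5 rose and 0 fell. Among them mt-Nd2, of respiratory complex I, went from 101.9 to 216 CPM (log2 change 1.11, limma adjusted p = 0.0112), with a control change of 0.33. With 1 library left out, mt-Nd2 was called in 9 of 9 fits, mt-Nd5, mt-Nd6 and mt-Rnr2 in 2 and mt-Nd3 in 1, and after GC correction 0 of the 5 were called. Pdcd1, which encodes PD-1, went from 111 to 216 (0.97, limma adjusted p = 0.0112), opposite in direction to Lag3, and by 1.01 in controls. Tgm2, a transglutaminase, went from 3.73 to 28.1 (2.87, limma adjusted p = 0.013) and Nav2 from 36.6 to 129 (1.82, limma adjusted p = 0.00848). Slc16a3, a lactate exporter, went from 106 to 45.6 (-1.22, limma adjusted p = 0.00848). Unc93b1, which carries endosomal Toll-like receptors, went from 3014 to 1736 (-0.80, limma adjusted p = 0.0065).

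Among markers of other cells, Otx2 went from a mean of 4.98 to 0.275 (limma adjusted p = 0.0331) and Calb1 from 3.49 to 0 in all 5 P31 KO libraries (limma adjusted p = 0.0162). The B cell markers Cd79b (-1.04, limma adjusted p = 0.0396) and Ighm (-0.48, limma adjusted p = 0.0483) were lower at P31. With 1 library left out, Cd79b and Ighm were called in 0 of 9 fits and Otx2 in 1. Calb1 was called in 5, and without any 1 of P17 KO 2 to 5 it was too low to be tested. Cd79b and Ighm were not called after GC correction.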
